A study of Mus musculus with 6 samples.

Results

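The genes described here encode the AP-1 transcription factors Fos, Fosb, Fosl2, Jun, Junb, Jund and Atf3 and the early response proteins Egr1 and Ier2. Members were all probe sets of the deposited table that carry one of these 9 symbols and no other. The rule gave 10 of 28821 probe sets, which measure 8 of the 9 genes, out of 13146 genes with a probe set of their own. Jun and Jund have 2 probe sets each, and no probe set is named for Atf3 here.

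AP-1 is a dimer of leucine zipper proteins. Fos family proteins bind DNA only as partners of a Jun protein, whereas Jun proteins also pair with each other. Many of these genes are immediate-early genes, transcribed within minutes of a growth factor, cytokine or stress signal by factors that are already present, and their RNAs are short-lived. Egr1 is a zinc finger factor induced by the same signals and restrained by the NAB corepressors. In myeloid progenitors AP-1 and Egr1 are known for roles in monocyte and macrophage differentiation. The same genes are also known to be induced when tissue is dissociated and cells are sorted.

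Expression was measured on Affymetrix Mouse430_2 arrays in sorted Lin-/Sca1-/cKit+ cells, the fraction that in normal marrow holds committed myeloid progenitors. The 3 wild-type samples came from the bone marrow of wild-type MF1 mice. The 3 leukemia samples came from the spleens of MF1 mice that had been lethally irradiated as adults and transplanted with hematopoietic progenitors transduced with AE9a, a truncated form of the AML1-ETO fusion protein. The mice of both groups were 12 to 16 weeks old. The labels give each leukemia sample as 1 numbered mouse and the wild-type source as mice in the plural, so the p-values measure the spread between these samples only. The wild-type mice are not described as irradiated or transplanted. The promoter that drives AE9a and the share of host cells left in the sorted fraction are not given in the sources used here. Spleen and leukemia, or bone marrow and wild-type, cannot be told apart. The time from death to lysis and the conditions of the sort are also not given there, and their part in these genes was not tested.

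The median intensity was 71.6 to 79.9 per array, and 9715 of 13146 genes were bright enough to be tested. In these the brightest probe set reached the 40th percentile of its array's deposited probe sets on 3 or more arrays. Genes below this are called dim. All levels are log2 intensities, and a change is the leukemia mean minus the wild-type mean of these, so that 1 is a doubling. Leukemia replicate 1 stood apart. Its estimated array weight was 0.191, against 0.831 to 2.82 for the other arrays, and correlations over probe sets were 0.969 to 0.978 within leukemia and 0.992 to 0.994 within wild-type. It was also the only leukemia array that shared a hybridization entry in the run records with the wild-type arrays. Arrays sharing such an entry are called a fluidics run here. A fit with the run as a block therefore takes its change from replicate 1 alone. The probe set for the 5′ end of 18S ribosomal RNA was higher in leukemia (means 11.58 ± 0.67 and 8.45 ± 0.85, log2 with SD, n = 3; exact permutation p = 0.1, the lowest value 3 against 3 arrays allow), and it was highest on replicate 1. The 3′ minus 5′ differences of Gapdh and Actb were highest on that array as well. The part of RNA quality in the results was not tested. For this reason each measured member gene is given with and without replicate 1. Kit, the receptor used in the sort, was bright in both groups but lower in leukemia (10.40 ± 0.04 log2 in wild-type and 9.64 ± 0.25 in leukemia, a change of -0.76, limma adjusted p = 0.00436), while Ly6a, which encodes Sca1, has no named probe set here. Of the 6 tested sort and progenitor genes 5 fell, where 25.2% of all tested genes did. Mpo, the myeloperoxidase of granulocyte-monocyte progenitors, changed by -9.31, Ptprc, which encodes CD45, by -7.64, Cd34 by -3.60 and Fcgr2b by -0.74. Mpo and Ptprc were dim on all leukemia arrays and were tested only through the wild-type arrays, so they had to be lower in leukemia to be tested. The sorted fractions differed in progenitor markers along with the members, and the part of this in the members' changes was not tested.

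RefSeq promoter sequences (GRCm38.p6) were taken for 7 of the 9 members, all but Egr1 and Ier2. Member entries on the chromosome of Egr1 were skipped in the search, so the lack of an Egr1 window here does not mean that RefSeq holds none. The 250 bases before the transcription start are printed for Jun, Junb and Jund, which rose, for Fosl2, which fell, and for Fos, the member whose wild-type arrays differed most. Each runs 5′ to 3′ in the direction of its gene. Capitals mark letters that match TGACG, TGACGTCA, TGACATCA or TGANTCA on either strand, the letters of CRE and AP-1 sites. The windows are chr4:95052223-95052472 on the minus strand for Jun, chr8:84978749-84978998 on the minus strand for Junb, chr8:70697489-70697738 on the plus strand for Jund, chr12:85473640-85473889 on the plus strand for Fos and chr5:32136222-32136471 on the plus strand for Fosl2.
Jun: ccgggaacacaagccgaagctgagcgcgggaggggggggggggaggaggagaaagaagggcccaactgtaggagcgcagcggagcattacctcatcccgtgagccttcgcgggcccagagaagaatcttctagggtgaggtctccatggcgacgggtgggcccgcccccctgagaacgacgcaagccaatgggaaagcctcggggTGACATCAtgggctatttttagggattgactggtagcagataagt
Junb: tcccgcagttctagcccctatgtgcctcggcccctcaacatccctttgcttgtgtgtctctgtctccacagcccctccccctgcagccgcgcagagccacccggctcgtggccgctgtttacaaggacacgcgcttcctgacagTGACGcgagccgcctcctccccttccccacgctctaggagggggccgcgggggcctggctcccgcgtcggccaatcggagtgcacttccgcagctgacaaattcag
Jund: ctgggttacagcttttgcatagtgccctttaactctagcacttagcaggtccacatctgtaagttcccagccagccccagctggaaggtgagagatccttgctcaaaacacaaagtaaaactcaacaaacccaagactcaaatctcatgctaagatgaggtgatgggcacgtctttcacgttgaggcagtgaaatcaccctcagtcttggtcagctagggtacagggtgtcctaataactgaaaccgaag
Fos: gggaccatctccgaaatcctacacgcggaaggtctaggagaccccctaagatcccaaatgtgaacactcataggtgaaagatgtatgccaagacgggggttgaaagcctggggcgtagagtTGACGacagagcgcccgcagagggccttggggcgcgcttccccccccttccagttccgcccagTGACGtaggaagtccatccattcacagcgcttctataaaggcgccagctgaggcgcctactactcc
Fosl2: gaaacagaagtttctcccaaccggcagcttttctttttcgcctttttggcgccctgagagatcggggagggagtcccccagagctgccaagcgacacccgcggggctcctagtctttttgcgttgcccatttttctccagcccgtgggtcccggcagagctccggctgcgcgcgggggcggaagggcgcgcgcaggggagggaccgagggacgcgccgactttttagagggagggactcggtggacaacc

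The Jun window holds TGACATCA from base -45 to base -38, counted from the base before the start as -1. Of 32851 RefSeq windows of this length, 2.93% hold these letters. The Fos window holds TGACG from -129 to -125 and again from -66 to -62, with TATAAA from -33 to -28. The Junb window holds TGACG from -106 to -102. TGACG, which also lies inside TGACGTCA, occurs in 17.8% of all windows. CCAAT, found in 33.8% of windows, lies at -65 to -61 in Jun and -36 to -32 in Junb. The Jund window, of a gene that rose, holds none of the motifs searched. The Fosl2 window holds none of the capitalised motifs either, but has GCGNGGGCG, the letters of an Egr1 site, from -79 to -71, which 4.7% of windows hold. These are matches of letters only, and no binding was measured.

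The comparison of leukemia with wild-type asks how the Lin-/Sca1-/cKit+ fraction of leukemia spleens differs from that of wild-type bone marrow. All 3 Jun family genes, Egr1 and Ier2 were higher in leukemia, by 1.79-fold for Ier2 to 6.45-fold for Jun. Fosl2 was lower by 5.44-fold, Fos did not pass the test, and Fosb was too dim to be tested. Of the 7 tested members 5 rose and 1 fell (limma, Benjamini-Hochberg adjusted p under 0.05). Over all tested genes 42.1% passed, 16.9% higher and 25.2% lower, and against that background the members are a small number of genes. Their median change was 1.87 on the log2 scale, beside -0.09 over all tested genes. Groups did not overlap in 8 of the 10 probe sets, 7 of them higher in leukemia, whereas they did not overlap in 48.0% of all probe sets and were higher without overlap in 22.8%. Without wild-type replicate 1, 2 or 3, the members past the threshold numbered 3, 4 and 3, where 29.3%, 28.2% and 27.2% of all tested genes passed. Without leukemia replicate 1, 2 or 3 they numbered 5, 6 and 5, where 48.5%, 39.8% and 40.2% of all tested genes passed. With the fluidics run as a block all 7 passed (52.8% of all tested genes), and with the replicate number as a block 5 did (36.7%). In a fit over single probe sets, 6 of the 8 tested member probe sets passed, where 38.4% of all did. In these bulk samples, fewer cells of a type and less RNA per cell cannot be told apart.

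**Figure D1:**
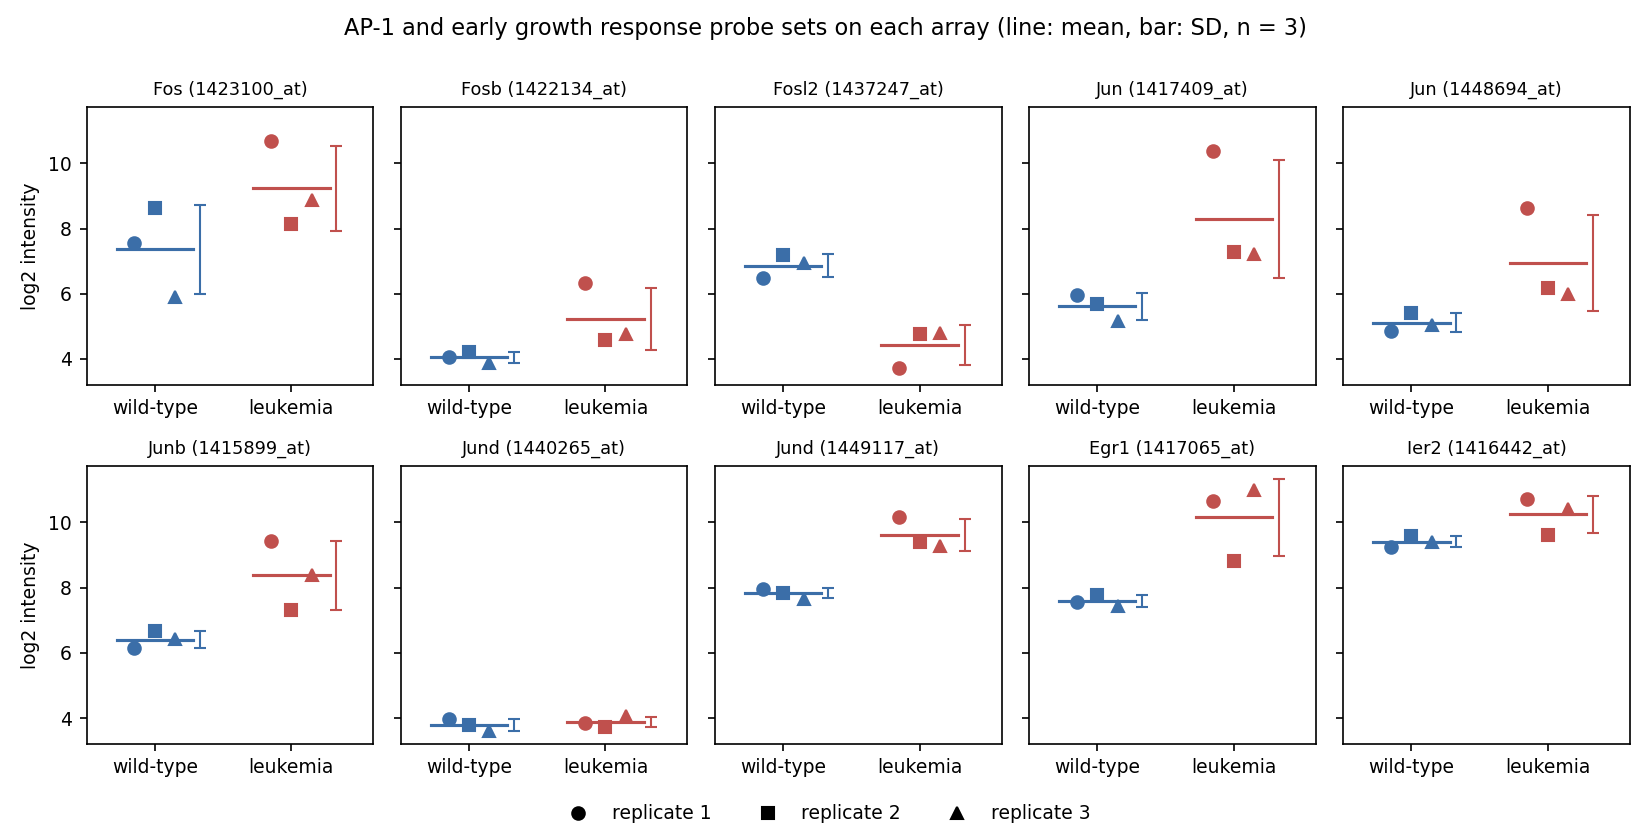
Log2 intensity of the 10 member probe sets on each wild-type (blue) and leukemia (red) array; shapes give the replicate number, lines the mean and bars the SD (n = 3). Leukemia replicate 1, the red circle, is the highest leukemia array in 7 of the 10 probe sets, while in Fos the groups overlap.

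Jun encodes the founding AP-1 subunit and, in its dimers with Fos, a strong activator. Its brighter probe set, 1417409_at, read 5.97, 5.70 and 5.16 log2 in wild-type replicates 1, 2 and 3 and 10.39, 7.29 and 7.22 in leukemia replicates 1, 2 and 3. All leukemia arrays lay above all wild-type arrays, with replicate 1 far above the other two. The mean rose from 5.61 ± 0.41 to 8.30 ± 1.81 (SD, n = 3), a change of 2.69 (SE 0.82, 95% interval 0.74 to 4.64, limma adjusted p = 0.0363). Without leukemia replicate 1 the change was smaller but the limma adjusted p was lower (1.64, adjusted p = 0.00308). Leaving out a wild-type array ended the call, at 2.87 without replicate 1 (limma adjusted p = 0.0794), 2.74 without replicate 2 (0.0961) and 2.47 without replicate 3 (0.117). With the fluidics run as a block, Jun differed by 4.78 (adjusted p = 0.000201).

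The second Jun probe set, 1448694_at, read 4.86, 5.42 and 5.05 in wild-type and 8.64, 6.18 and 5.99 in leukemia. The order of the arrays matched that of the first probe set in leukemia, and the groups again did not overlap. It passed the filter on dim values only through the leukemia arrays. Its change of 1.83 (SE 0.67) had an adjusted p of 0.0686 in the limma fit over probe sets, beside 0.0387 for 1417409_at in that fit. Leaving out leukemia replicate 1 gave a change of 0.98, with an adjusted p of 0.0108.

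Junb encodes a Jun protein that is a weaker activator and can act against Jun, and whose loss in mice is known to give a myeloproliferative disease. Its probe set 1415899_at read 6.14, 6.66 and 6.42 in wild-type and 9.44, 7.32 and 8.39 in leukemia. The groups did not overlap, and the 3 leukemia arrays were spread widely with replicate 1 at the top and replicate 2 at the bottom. Junb rose from 6.41 ± 0.26 to 8.38 ± 1.06, by 1.97 (SE 0.49, 95% interval 0.81 to 3.14, limma adjusted p = 0.0175). Without leukemia replicate 1 it rose by 1.45 (adjusted p = 0.0143). The call ended when wild-type replicate 1 (1.84, limma adjusted p = 0.0646) or replicate 3 (1.98, 0.0593) was left out, and the run block gave 3.03.

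Jund encodes the Jun protein that is made more steadily in resting cells than the others. Probe set 1449117_at read 7.96, 7.85 and 7.66 in wild-type and 10.17, 9.40 and 9.27 in leukemia. Each leukemia array lay well above the wild-type arrays, and their spread was the smallest of the rising AP-1 genes. The mean went from 7.82 ± 0.15 to 9.62 ± 0.49, a rise of 1.79 (SE 0.24, 95% interval 1.22 to 2.37, limma adjusted p = 0.00139). Jund kept its call under all 17 alternatives run, with a rise of 1.51 without leukemia replicate 1. Its other probe set, 1440265_at, was dim on all 6 arrays, at 3.79 ± 0.18 in wild-type and 3.88 ± 0.16 in leukemia. There the groups overlapped (exact permutation p = 0.5), and averaging both probe sets lowered the change of Jund to 0.94 (adjusted p = 0.00416).

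Fos encodes the prototype Fos protein and is among the most quickly induced genes known. Its probe set 1423100_at read 7.56, 8.62 and 5.91 in wild-type replicates 1, 2 and 3 and 10.68, 8.13 and 8.88 in leukemia. Wild-type replicate 2 lay above leukemia replicate 2, so the groups overlapped. The means were 7.36 ± 1.36 and 9.23 ± 1.31, and the difference of 1.87 (SE 0.84, 95% interval -0.11 to 3.85) did not pass the test (limma adjusted p = 0.113). Of the 9715 tested genes, 0 had a larger SD among the wild-type arrays than Fos. For comparison, the median SD over tested genes was 0.11 in wild-type and 0.22 in leukemia. Without leukemia replicate 1 the difference was 1.14 (adjusted p = 0.25), and without wild-type replicate 3, the lowest array, it was also 1.14 (adjusted p = 0.309). Fos passed only with the run as a block, where replicate 1 stood 3.32 above the wild-type mean (adjusted p = 0.0268).

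Fosb encodes a close relative of Fos. Probe set 1422134_at read 4.06, 4.22 and 3.86 in wild-type and 6.32, 4.59 and 4.75 in leukemia. The groups did not overlap, but only leukemia replicate 1 reached the brightness asked of tested genes. The means were 4.05 ± 0.18 and 5.22 ± 0.96, 2.26-fold apart, with an exact permutation p of 0.1. Without leukemia replicate 1 the log2 difference was 0.63.

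Fosl2 encodes Fra-2, a Fos protein that lacks the strong activation domain of Fos. Its probe set 1437247_at went the other way, with 6.47, 7.19 and 6.93 in wild-type and 3.71, 4.75 and 4.79 in leukemia. All leukemia arrays lay below all wild-type arrays, and replicate 1 was the lowest. Fosl2 fell from 6.86 ± 0.36 to 4.42 ± 0.62, a change of -2.44 (SE 0.34, 95% interval -3.25 to -1.64, limma adjusted p = 0.00156). It passed the filter only through the 3 wild-type arrays, so a gene of this kind had to be lower in leukemia to be tested at all, and the size of the fall depends on how dim values are treated. With 16 added before the log the change was -1.81, and at a stricter filter, the 60th percentile, it was not tested. Every other alternative kept the call, with a change of -2.09 without leukemia replicate 1 (limma adjusted p = 0.00092).

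Egr1 encodes the early growth response factor. Probe set 1417065_at read 7.56, 7.79 and 7.43 in wild-type and 10.65, 8.82 and 11.01 in leukemia. The groups did not overlap, and here replicate 3, not replicate 1, was the highest leukemia array. Egr1 rose from 7.59 ± 0.18 to 10.16 ± 1.17, by 2.57 (SE 0.53, 95% interval 1.32 to 3.82, limma adjusted p = 0.0082). The call held under all 17 alternatives, with 2.32 without leukemia replicate 1 and 3.24 without replicate 2.

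Ier2 encodes a short-lived nuclear protein induced with the AP-1 genes. Probe set 1416442_at read 9.25, 9.58 and 9.41 in wild-type and 10.71, 9.62 and 10.42 in leukemia. The groups did not overlap, but leukemia replicate 2 lay only 0.05 above the highest wild-type array. The rise, from 9.41 ± 0.17 to 10.25 ± 0.56, was 0.84 (SE 0.27, 95% interval 0.21 to 1.47, limma adjusted p = 0.0417). It was the least stable call among the members and was lost under 7 alternatives. These included leaving out wild-type replicate 1 (0.76, adjusted p = 0.128), 2 (0.92, 0.0821) or 3 (0.84, 0.112) and leukemia replicate 1 (0.61, 0.076) or 3 (0.75, 0.0972).

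**Figure D2:**
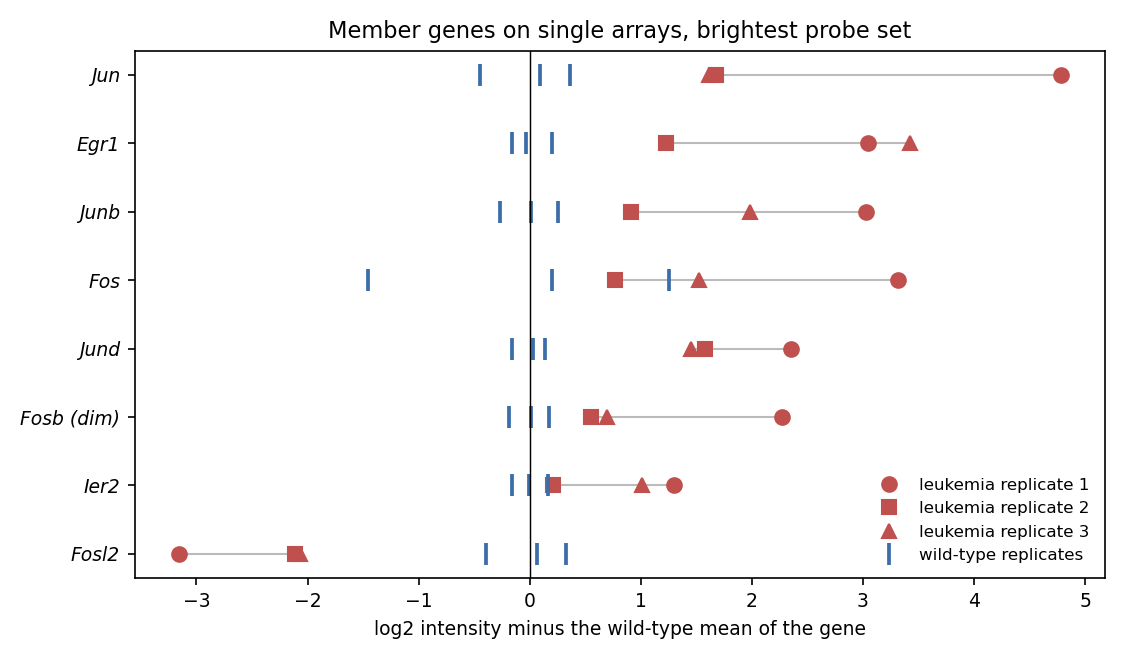
Log2 intensity of each member gene (brightest probe set) minus its wild-type mean, for wild-type arrays (blue ticks) and leukemia replicates 1, 2 and 3 (red circle, square and triangle). Replicate 1 is far to the right for Jun (4.78 against 1.68 and 1.61), replicates 1 and 3 are together for Egr1 (3.05 and 3.42 against 1.23), and Fosl2 is to the left on all 3 arrays.

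The leukemia arrays did not order the members alike. Above their wild-type means, replicate 2 showed the smallest differences for Egr1, Junb, Fos, Fosb and Ier2. For Jun and Jund, replicates 2 and 3 lay close together, at 1.68 and 1.61 for Jun and at 1.58 and 1.45 for Jund. Replicate 1 exceeded the mean of replicates 2 and 3 by 3.14 for Jun, 2.18 for Fos, 1.58 for Junb, 0.84 for Jund, 0.73 for Egr1 and 0.69 for Ier2. For Fosl2 it was lower than that mean, by a difference of -1.07. Of all tested genes, 99.9% had a lower value of this difference than Jun and 99.7% a lower one than Fos, while the median was -0.04.

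**Figure D3:**
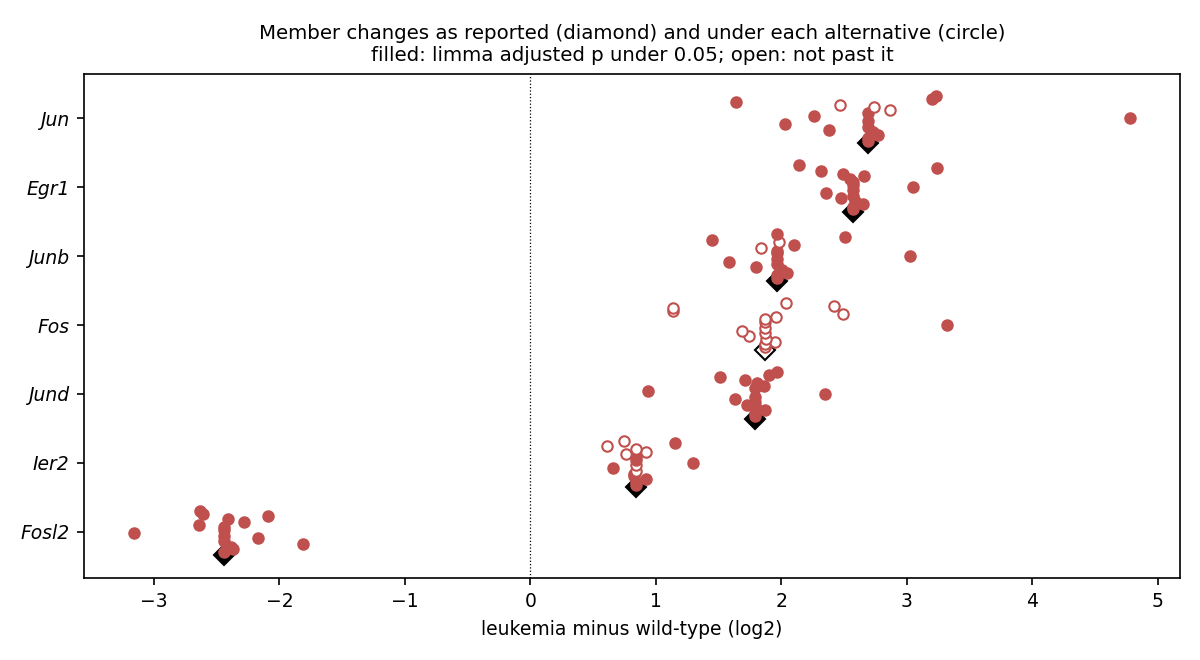
Log2 change of each tested member (leukemia minus wild-type) as reported (diamond) and under each alternative run (circles); filled symbols passed a limma adjusted p of 0.05. Egr1, Jund and Fosl2 are filled in every setting that tested them, Fos is filled only at 3.32 with the run as a block, and Ier2 has open circles under 7 alternatives.

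Other immediate-early and early response genes were read from a list of 47, of which 42 were measured and 32 tested. In the limma fit 11 rose and 4 fell, with a median change of 0.90, and 17 did not pass. The shares of all tested genes were 16.9% higher and 25.2% lower. The largest rises were in Phlda1 (4.66, adjusted p = 1.03e-05), Bhlhe40, a circadian repressor (3.08, 1.04e-04), and Klf6, a zinc finger factor (2.84, 3.37e-05). In these genes leukemia replicate 1 was close to the others, at 0.22, -0.28 and 0.12 from the mean of replicates 2 and 3. Phlda1 and Bhlhe40 were dim on all wild-type arrays and were tested only through the leukemia arrays, so the size of their rises depends on how dim values are treated. The largest falls were in Gadd45a, a DNA damage response gene (-3.91, adjusted p = 2.92e-05), Rhob, a small GTPase (-1.66, 0.0385), and Cd69, an activation antigen (-1.64, 0.047). Gadd45a was dim on all leukemia arrays and was tested only through the wild-type arrays, with the same limit. The count that fell was 1 when a wild-type replicate was left out, whichever it was. At an unadjusted limma p under 0.05, 4, 2 and 3 fell without wild-type replicate 1, 2 and 3, beside 5 with all arrays. Without leukemia replicate 1, 7 fell and 14 rose at the adjusted threshold, where 48.5% of all tested genes passed. The median change of the list was then 0.38. Rhob lost its call without wild-type replicate 1, 2 or 3 (adjusted p = 0.0592, 0.124 and 0.117) or leukemia replicate 2 (0.0573), and its change was -1.07 without leukemia replicate 3. It also lost the call with the arrays centred on their medians (0.0515), with the replicate number as a block (0.0579) and with the run as a block, where the change was -0.75 (0.307). Cd69 lost its call under 11 alternatives, with adjusted p = 0.134 without wild-type replicate 3 and a change of -1.06 without leukemia replicate 2.

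Replicate 1 was the highest leukemia array in 23 of the 32 genes (71.9%) and in 5 of the 7 tested members (71.4%), compared with 35.7% of all tested genes. It exceeded the mean of the other two leukemia arrays in 27 of the 32 genes. Several genes, named after their values were seen, were raised on that array and did not pass the test. Rgs1, a regulator of G protein signalling, was 2.78 above the mean of replicates 2 and 3 and had a change of 2.06 (limma adjusted p = 0.0608). For Zfp36, which destabilises cytokine mRNAs, these values were 2.51 and 1.16 (adjusted p = 0.205), and for the nuclear receptor Nr4a2 they were 2.53 and 1.28 (0.157).

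**Figure D4:**
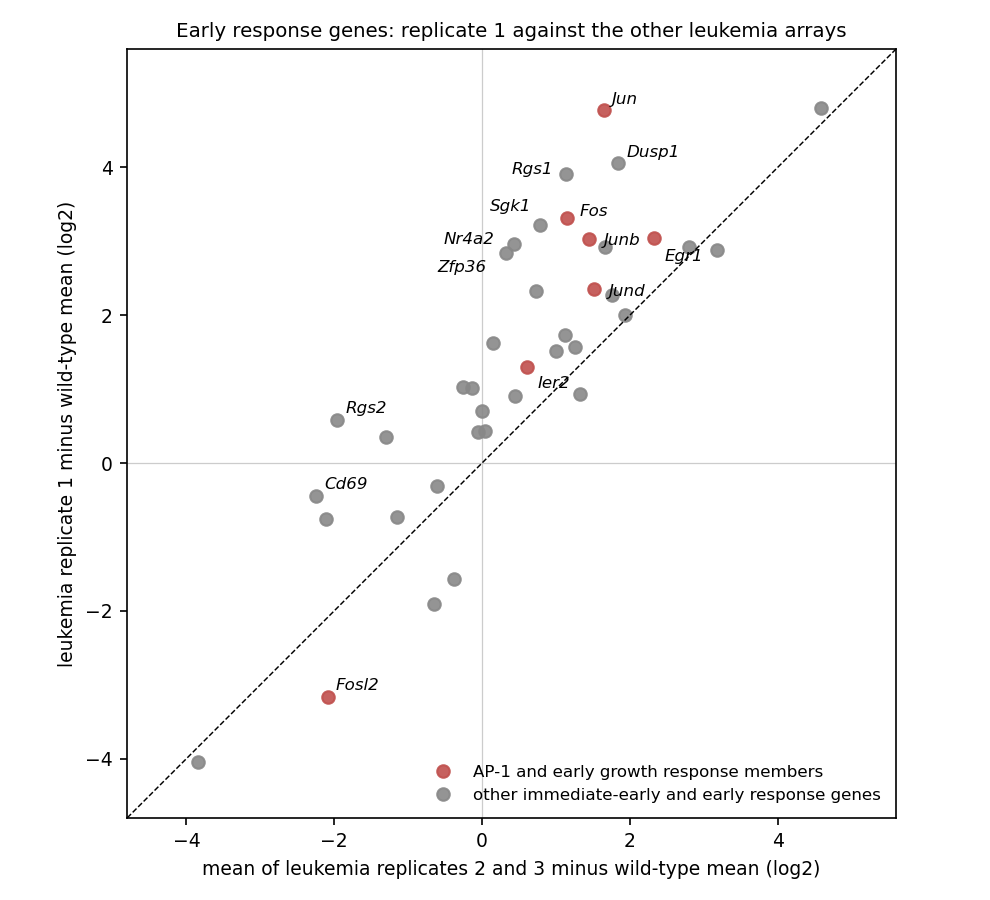
For the 7 tested members (red) and the 32 other early response genes (gray), leukemia replicate 1 minus the wild-type mean (vertical, log2) is plotted against the mean of leukemia replicates 2 and 3 minus the wild-type mean (horizontal, log2). Points above the dashed line of equality were higher on replicate 1, which holds for 6 members and 27 of the other genes.

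Of 12 other genes for AP-1 and related zipper proteins, 8 were measured and 5 tested. In the limma fit 0 rose, at an adjusted or an unadjusted p under 0.05, and 3 fell, with a median change of -1.08. At the adjusted threshold 16.9% of all tested genes rose and 25.2% fell. Jdp2, which encodes a repressor that pairs with Jun, read 6.45, 7.28 and 7.14 in wild-type and 3.72, 4.16 and 3.52 in leukemia, where it was below the brightness filter on every array, so that it too was tested only through the wild-type arrays. It fell by 3.15 (adjusted p = 1.96e-04). Mafg, a small Maf protein, changed by -1.29 (0.00182). Batf, an AP-1 factor of lymphoid and myeloid cells, changed by -1.08 (0.0302), a call lost without any 1 wild-type array (adjusted p = 0.0721, 0.104 and 0.0854), without leukemia replicate 1 (0.0555) or 3 (0.0509), and with the run as a block (0.0757).

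The NAB corepressors, which bind and restrain Egr1, both rose. Nab1 read 8.85, 8.87 and 8.98 in wild-type and 10.52, 10.10 and 10.41 in leukemia, a rise of 1.44 (SE 0.13, limma adjusted p = 2.03e-04). Nab2 read 5.44, 5.70 and 5.49 against 6.58, 6.90 and 6.83, a rise of 1.23 (adjusted p = 0.00129). In neither gene did the groups overlap. Egr3 was dim on all arrays.

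Among 22 tested genes of the MAP kinase cascade, which signals to the AP-1 and Egr1 promoters, 3 rose and 5 fell in the limma fit, with a median change of -0.09. Of all tested genes 16.9% rose and 25.2% fell, and their median change was also -0.09. Mapkapk2, a kinase downstream of p38 (-3.02, adjusted p = 2.64e-05), the ETS factor Elk3 (-3.01, 3.33e-04) and the SRF coactivator Mrtfa (-2.74, 0.00265) changed most. Elk3 was dim on all leukemia arrays and was tested only through the wild-type arrays. The rises were small, at 0.85 for Map2k4, a kinase that activates JNK, 0.42 for Rps6ka3 and 0.36 for Map2k3. The number that rose was 0 without wild-type replicate 1 or 2 (2 in each case at an unadjusted p under 0.05), and 1 without wild-type replicate 3 or leukemia replicate 3. Map2k3 passed at a limma adjusted p of 0.049 and lost its call without any 1 wild-type array (0.16, 0.119 and 0.0666). It also lost the call without leukemia replicate 2 (0.122) or 3 (0.0664). With the mean of its probe sets the change was 0.03 (0.908). A second probe set of Map2k3 had a change of -0.30, and neither passed in the fit over probe sets.

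Of 9 tested inhibitors that MAP kinases induce, Dusp10, a phosphatase for JNK and p38, rose by 1.93 (limma adjusted p = 0.0217) and Dusp7 changed by -1.36 (0.00131). The other 7 did not pass, where 42.1% of all tested genes did. Dusp10 lost its call without wild-type replicate 1 (adjusted p = 0.0775) or 2 (0.0724) or leukemia replicate 3 (0.0513), and without leukemia replicate 2 the inhibitors that rose numbered 3. Dusp1, a phosphatase listed among the early response genes and named as the gene most like Jun in profile, read 6.93, 7.31 and 6.90 in wild-type and 11.10, 8.77 and 9.0 in leukemia. It rose by 2.58 (adjusted p = 0.0118), and as in Jun, leukemia replicate 1 was far above the other two.

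Heat shock genes, also induced by stress, were read as a further list. Of 10 tested genes 0 rose in the limma fit, at an adjusted or an unadjusted p under 0.05. At the adjusted threshold 8 fell, and the median change was -0.53. Over all tested genes 16.9% rose and 25.2% fell. The part of stress in the changes of these genes or of the members was not tested. Hspa1b, the inducible Hsp70, changed by -3.39 (adjusted p = 2.00e-04), with its 3 probe sets between -3.39 and -3.10. It was dim on all leukemia arrays and was tested only through the wild-type arrays. Hsph1, a cochaperone of Hsp70, changed by -1.90 (0.00935), or -2.90 with the run as a block, and Bag3 by -0.96 (0.00221). When leukemia replicate 1 was left out, 7 fell.

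Textbook targets of AP-1 and Egr1 were divided, with 4 higher and 4 lower among 12 tested and a median change of -0.01. The background over all tested genes was 16.9% higher and 25.2% lower. The galectin gene Lgals3 (2.06, limma adjusted p = 0.00659) and the cell cycle inhibitor Cdkn1a (1.33, 5.21e-04) rose, as did the cytokine gene Tnf (0.65, 0.0465). Ccnd1, which encodes cyclin D1, changed by -2.17 (5.50e-04), with its 3 probe sets between -2.67 and -1.49. Tgfb1 changed by -0.62 (0.0219), and the adhesion receptor Cd44 by -0.64 (0.00506) while another of its probe sets had a change of 0.64. With the mean of all probe sets neither passed, at -0.20 for Cd44 (adjusted p = 0.278) and -0.18 for Tgfb1 (0.443). Tgfb1 also lost its call without wild-type replicate 2 (0.0828) or 3 (0.0861). The number that rose was 2 without wild-type replicate 1 or 2 or leukemia replicate 3. At an unadjusted limma p under 0.05 it was 4, 3 and 3 in these settings. Without wild-type replicate 3, 2 fell, or 4 at an unadjusted p. Tnf lost its call without any 1 wild-type array (adjusted p = 0.0994, 0.123 and 0.138) and without leukemia replicate 1 (0.0918) or 3 (0.11).

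**Figure D5:**
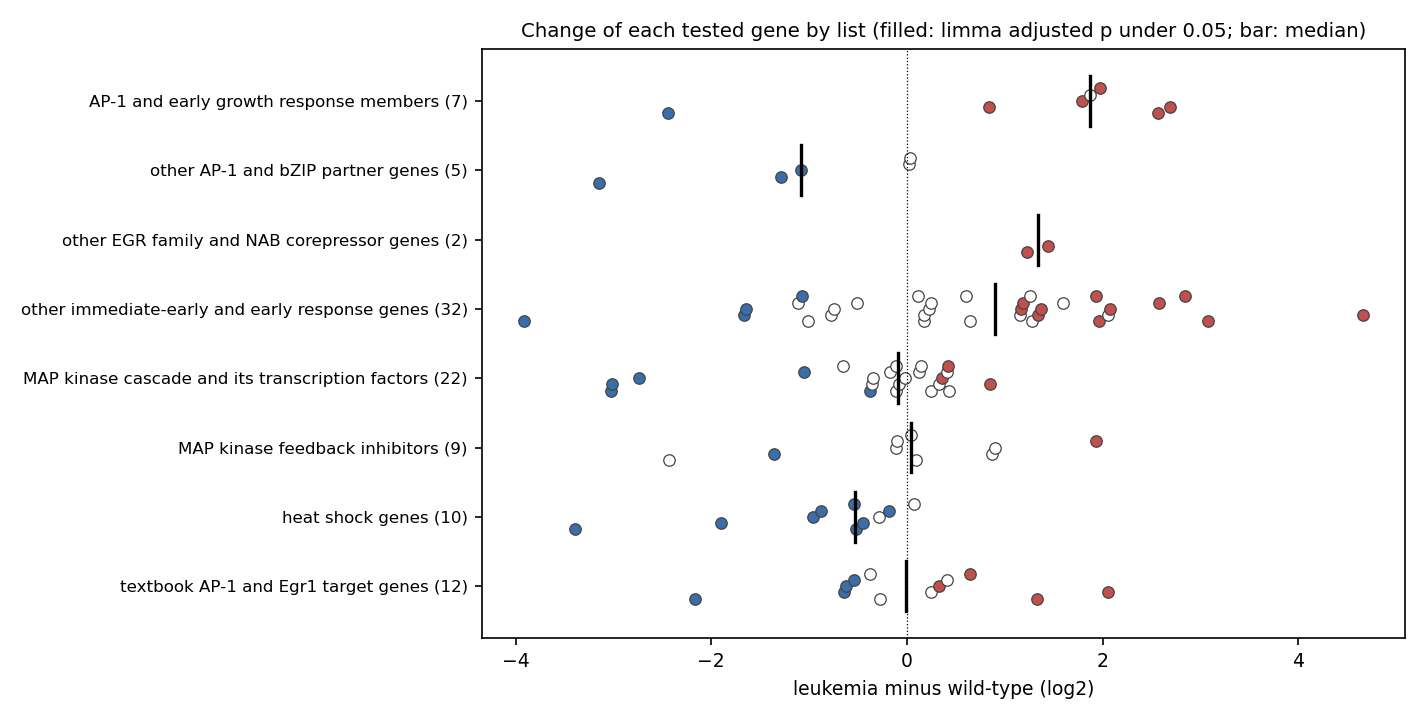
Log2 change of each tested gene (leukemia minus wild-type) for the members and 7 further lists with the number tested in parentheses; filled points passed a limma adjusted p of 0.05 (red higher, blue lower), open points did not, and bars are list medians. The members' median lies at 1.87, early response genes at 0.90 and heat shock genes at -0.53.

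Markers of other cell types differed between the groups alongside the members. As background for their counts, 16.9% of all tested genes were higher and 25.2% lower. Of 7 tested monocyte, macrophage and neutrophil markers 5 fell, and the summed intensity of the 13 measured markers was 3000 to 5020 in wild-type and 385 to 543 in leukemia. Csf1r, the receptor of monocyte growth factor CSF1, changed by -6.27 (its 3 probe sets between -6.27 and -2.53, and -4.19 for their mean) and Lyz2, a lysozyme gene, by -5.51. All 5 that fell, Csf1r, Lyz2, Cd68, C1qa and C1qb, were dim on all leukemia arrays. They were tested only through the wild-type arrays, so they had to be lower in leukemia to be tested at all. Adgre1 and Itgam were dim on all 6 arrays. These cell types express Fos, Fosb and Egr1 on activation. The 5 mast cell and basophil markers that were tested gave 3 higher and 1 lower, with sums over 7 measured markers of 3670 to 4370 in wild-type and 9170 to 20400 in leukemia. Cma1 (4.09), Ms4a2 (2.77) and Fcer1a (2.29) rose, Mcpt8 changed by -5.67, and Cpa3 did not pass (0.17, limma adjusted p = 0.822). Mcpt8 was dim on all leukemia arrays and was tested only through the wild-type arrays. Mcpt1 and Tpsb2 were dim, and Mcpt1 reached the filter only on leukemia replicate 2. Mast cells also carry Kit, but whether they passed the sort was not measured. Erythroid sums overlapped, at 2190 to 3990 and 3050 to 5590, although 4 of 5 markers rose. Of those that rose, Alas2, Epb42 and Slc4a1 were dim on all wild-type arrays and were tested only through the leukemia arrays. Rhag was bright in both groups. Megakaryocyte sums were 1870 to 2070 and 788 to 1670, with 1 of 5 tested markers higher and 4 lower. Endothelial and stromal sums were 630 to 687 and 283 to 539, with 1 of 4 higher and 3 lower. Of the markers that fell, Ppbp, Pecam1 and Vwf were dim on all leukemia arrays and were tested only through the wild-type arrays. B cell sums were 676 to 1270 and 90.7 to 271, with Ms4a1 and Ebf1 dim. Ighm, the B cell marker that fell, was likewise tested only through the wild-type arrays. T and NK cells had 2 measured markers, Cd8a and Ncr1, both dim and so not tested, with sums of 52.5 to 61.9 and 29.8 to 37.0. These markers went opposite ways, with changes of 0.19 for Cd8a and -1.23 for Ncr1. The part of other cell types in the changes of the members was not tested.

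Genes with the most similar profile were found by the root mean square difference of log2 values over the 6 arrays, each gene set to its own wild-type mean. For Jun these were Dusp1 (0.41), Trnp1 (0.53) and Rgs1 (0.58), beside a median of 2.26 over all tested genes. Fos was most like Rgs1 (0.73), Junb (0.78) and Zfp945 (0.84), with a median of 1.79. Egr1 had closer neighbours, Ddx25 (0.23), St6gal1 (0.29) and Klhdc8b (0.44), with a median of 2.01. Ddx25 stood 3.28, 1.25 and 3.31 above its wild-type mean in leukemia replicates 1, 2 and 3, and Egr1 3.05, 1.23 and 3.42. Jun and Dusp1 instead shared a high replicate 1, at 4.78 and 4.06, with 1.68 and 1.73 on replicate 2 and 1.61 and 1.96 on replicate 3.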

How the data were processed

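Total RNA (200 ng per array) of 3 wild-type and 3 leukemia samples was hybridised as biotin-labelled cRNA, per the labels. The authors deposited a table of intensity values, linear from 3.31 to 18869, made with RMA per the submitters' processing notes. The RMA version, background and scaling settings are not given in the sources used here. The design had been written for log2 values, so the linear values were logged without a pseudocount before the same test. Of 28821 deposited probe sets, 23750 had 1 symbol in the platform annotation. The brightest probe set of each gene was used (13146 genes), and the 9715 that reached the 40th percentile of an array's probe sets on 3 or more arrays were tested, leaving 3431 as dim. All value columns were mapped. Arrays sharing a hybridization entry in the run records were taken as 1 fluidics run.

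Leukemia was compared with wild-type with lmFit and trended eBayes of limma 3.58.1 (R 4.3.3; two-sided, threshold 0.05 after Benjamini-Hochberg adjustment over all tested genes), and once more over 18098 probe sets. Dim members and control probe sets were compared by two-sided exact permutation tests. The precision is limited by 3 arrays a group. Titles gave groups and replicate numbers. Same-numbered deviations correlated at -0.0694, 0.0499 and 0.0297, so numbers were not treated as pairs. All member probe sets are named, and of each other list up to 3 genes per direction with the largest change among changed genes without overlap between groups (for marker lists up to 2, beside defining markers that are dim). The genes closest in profile to Fos, Jun and Egr1 are also named. Kit, Fcgr2b, Egr3, Rgs1, Zfp36, Nr4a2, Fcer1a and Cpa3 were chosen outside this rule after their values were seen, Rgs1 also being close in profile to Fos and Jun. The members and lists were chosen with earlier results of these data known. The fit was tested on simulated data. Alternatives covered the filter, scaling, offset, variance moderation, array weights, blocks, probe set choice and leaving out each array. Promoter windows came from the RefSeq table, and figures were drawn with matplotlib 3.10.9.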

Additional observations from a re-analysis of the deposited data

How the results depend on the processing

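Of 118 values of single members under alternatives, 105 kept their direction and their side of the threshold, 12 lost the call, 1 (Fos, run as a block) gained it and 0 changed direction. The 6 member genes that passed became 3 to 6 when single arrays were left out, 3 without wild-type replicate 1 or 3 and 4 without wild-type replicate 2, and 5 to 7 in the other settings. Member probe sets that passed (6) became 3 to 6 without single arrays, 3 without any wild-type one, and 4 to 8 otherwise. Over all genes, 4089 passed, 2647 to 4716 without single arrays and 3193 to 5132 otherwise. With the replicate block, 5 member genes and 3565 genes passed, and Ier2 lost its call (0.84, limma adjusted p = 0.0698). Wild-type replicate 1 correlated best with leukemia replicate 3 (0.113), not with its own number. Ier2 also lost its call without the intensity trend (adjusted p = 0.0558). The causes were not tested. Fosb, the dimmer Jund probe set and, in leukemia, Fosl2 fell below the brightness filter, and their signal over background was not assessed.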
